A study of Mus musculus with 8 samples.

Results

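Germ cell RNA-binding proteins were examined in mouse germ cells made in culture and in germ cells taken from the embryo. The 9 genes are Dazl, Ddx4, Nanos1, Nanos2, Nanos3, Dnd1, Pum2, Cpeb1 and Elavl2, out of 21950 genes in the deposited count table. Each gene was found by its symbol, through the Entrez identifier of its row. The genes were chosen by a rule written with their fold changes between the groups in these libraries known, so that the values of this contrast are given as a description, without a p-value for any of the 9. The libraries were made from 4 d6PGCLC pools and 4 E12.5 PGC pools. The d6PGCLCs were primordial germ cell-like cells of a single iPSC line, BVSC-iPSC, which carries Blimp1-Venus and Stella-ECFP reporters. They were collected at day 8 of culture, 6 days after the step from epiblast-like cells, by the sort used before culture with gonadal cells. For this line the study describes that sort as positive for both reporters, and its methods also name SSEA1 with integrin β3 as a choice. The E12.5 PGCs were primordial germ cells of female C57BL/6J gonads, sorted for SSEA1 and integrin β3. Each pool came from an independent experiment. Cell source, culture and stage differ between the groups, as do the sorting markers if the reporters were used, and these cannot be told apart.

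Germ cells rely on RNA-binding proteins to decide which transcripts are translated, stored or degraded. DAZL binds U-rich elements in the 3′ untranslated regions of its target mRNAs and is required for PGCs to acquire competence for gametogenesis, and DDX4 (VASA) is an RNA helicase of germ granules that takes part in piRNA production. Both are known as genes that switch on in PGCs around the time these reach the gonad. NANOS and PUM proteins repress target mRNAs together, DND1 works with NANOS proteins in PGC survival, CPEB1 controls cytoplasmic polyadenylation, and ELAVL2 is an AU-rich element binding protein of neurons and germ cells.

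The libraries held between 8054596 and 12024841 counted reads in d6PGCLCs and between 7991437 and 11166023 in E12.5 PGCs. Values are given as CPM, counts scaled with TMM to a common library total, or as RPKM, the same value per kilobase of the deposited exonic length. A count of 3, taken as the floor of a library, corresponded to 0.249 to 0.383 CPM, which covers counting error only. All 11 germ cell markers of a list were detected in both groups, with a summed level of 6104 to 6685 CPM in d6PGCLCs and 3705 to 4095 CPM in E12.5 PGCs. In edgeR's fit, in which 16.1% of all genes rose and 15.4% fell at an adjusted p of at most 0.05, 8 of them rose in d6PGCLCs and 2 fell. The 2 that fell were Itgb3, the gene of the integrin β3 used in the PGC sort, and Fut4. No gene is assigned here to SSEA1, the other antigen of that sort. Fut4 was weakly expressed, with 52.4 reads per library on average. Its mean was 0.875 CPM for the d6PGCLC pools, against 9.87 CPM for the embryonic pools. Prdm1 (Blimp1) and Dppa3 (Stella), the genes of the reporters of the iPSC line, were among the 8 that rose. In E12.5 PGCs, replicate 2 had a summed level of 1143 CPM over 11 immediate early and heat shock genes, against 495.3 to 570.4 CPM in the other libraries of that group. Of these 11 genes, 7 fell and 2 rose in d6PGCLCs in the same fit. Jun, Hspa1a and Hspa1b had lower values in all d6PGCLC libraries than in any E12.5 PGC library, and Junb and Zfp36, the 2 that rose, had higher values. Their part in the values of the members was not tested. Replicate 4 was the only library with reads on 5 Y-linked genes, at 8.76 CPM in sum. Without these 2 libraries the log2 fold changes of the members moved by less than the spread between replicates, and only that of Nanos3, which was near 0, changed its sign (0.05).

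Dazl and Ddx4 stood far below the embryonic level in d6PGCLCs. Dazl lies at chr17:50279393-50293620 (GRCm38, minus strand). Its level was 50.5, 63.9, 17.8 and 18.5 CPM in d6PGCLC replicates 1 to 4 and 1580, 1018, 1299 and 1151 CPM in E12.5 PGC replicates 1 to 4. The highest d6PGCLC library was thus far below the lowest E12.5 PGC library. The means were 37.7 ± 23.2 and 1262 ± 241 CPM (SD, n = 4 each), a log2 fold change of -5.07 ± 0.26 (SE), or 33.6-fold lower in d6PGCLCs. The counts behind these values ranged from 153 to 628 reads in d6PGCLCs and from 9672 to 14088 reads in E12.5 PGCs, so that the transcript was well above the floor in every library.

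Ddx4, at chr13:112598333-112652633 on the minus strand, was measured at 38.2, 42.8, 27.2 and 33.9 CPM in d6PGCLC replicates 1 to 4. In E12.5 PGC replicates 1 to 4 it was measured at 798, 626, 836 and 782 CPM. The groups did not overlap. The means were 35.5 ± 6.60 and 760 ± 92.2 CPM (SD, n = 4 each), with a log2 fold change of -4.42 ± 0.12 (SE), 21.5-fold lower in d6PGCLCs. In bulk RNA, fewer cells that express a gene and less RNA in each cell cannot be told apart, and this holds for every level given here.

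The promoters of Dazl and Ddx4 are shown with that of Nanos3, a member at a like level in both groups, because the members differ in the CpG content of this region. The sequences are the 250 bases before the annotated start from RefSeq (GRCm38.p6), written 5′ to 3′ on the strand of the gene, with every CpG in capitals. The start is the one in the RefSeq table, which for Ddx4, Pum2, Cpeb1 and Elavl2 lies inside the gene interval and need not be that of the counted isoform. The stretches cover chr17:50293621-50293870, chr13:112652311-112652560 and chr8:84176553-84176802, all on the minus strand.
Dazl: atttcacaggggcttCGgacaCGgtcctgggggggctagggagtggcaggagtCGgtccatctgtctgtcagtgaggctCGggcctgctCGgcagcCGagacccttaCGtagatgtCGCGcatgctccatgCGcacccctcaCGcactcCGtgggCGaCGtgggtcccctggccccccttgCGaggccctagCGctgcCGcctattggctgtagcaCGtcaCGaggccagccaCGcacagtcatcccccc
Ddx4: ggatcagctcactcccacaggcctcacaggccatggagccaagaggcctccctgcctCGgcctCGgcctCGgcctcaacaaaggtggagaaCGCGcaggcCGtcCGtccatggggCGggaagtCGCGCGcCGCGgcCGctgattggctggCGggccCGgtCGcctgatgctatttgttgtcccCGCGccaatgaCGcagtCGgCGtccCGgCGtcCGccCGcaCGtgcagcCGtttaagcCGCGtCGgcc
Nanos3: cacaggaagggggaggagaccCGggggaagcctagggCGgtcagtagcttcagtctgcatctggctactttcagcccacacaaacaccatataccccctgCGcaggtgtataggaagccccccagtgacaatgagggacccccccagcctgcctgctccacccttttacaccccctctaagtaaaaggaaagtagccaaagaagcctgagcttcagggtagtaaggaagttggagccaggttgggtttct

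These stretches held 20 CpG in Dazl, 31 in Ddx4 and 3 in Nanos3. Over the whole window of 300 bases, from 250 before the start to 50 after it, Dazl held 28 CpG and Ddx4 38. Of all 32851 RefSeq windows of this length, 14.2% held at least 28 and 4.95% at least 38, with a median of 7. Nanos1 (34) and Cpeb1 (33) were also CpG-rich, as were the 3 annotated starts of Pum2 (35 to 44), whereas the 6 starts of Elavl2 ranged from 10 to 27. The window of Nanos2 held 0 CpG. The windows were also searched on both strands for 2 sets of letters known from germ line gene promoters, the E-box CACGTG, which reads the same on both strands, and GCGGGA, which reads TCCCGC on the other strand. Ddx4 held both, with the first base of the E-box at position -29 and that of GCGGGA at position -136 from the start. The 30 bases around each are printed with the match in capitals, at chr13:112652322-112652351 and chr13:112652429-112652458 on the minus strand.
Ddx4 E-box: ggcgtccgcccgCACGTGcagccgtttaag
Ddx4 GCGGGA: tccgtccatgggGCGGGAagtcgcgcgccg

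Of all windows, 7.15% held CACGTG, 20.0% held GCGGGA and 1.99% held both. Dazl held neither of them, and among the other members with a window Cpeb1 held both, GCGGGA was held at all 3 starts of Pum2 and at 3 of the 6 of Elavl2, and the windows of Nanos1, Nanos2 and Nanos3 held neither. A match is a description of letters and says nothing of binding. No window was matched for Dnd1.

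**Figure D1:**
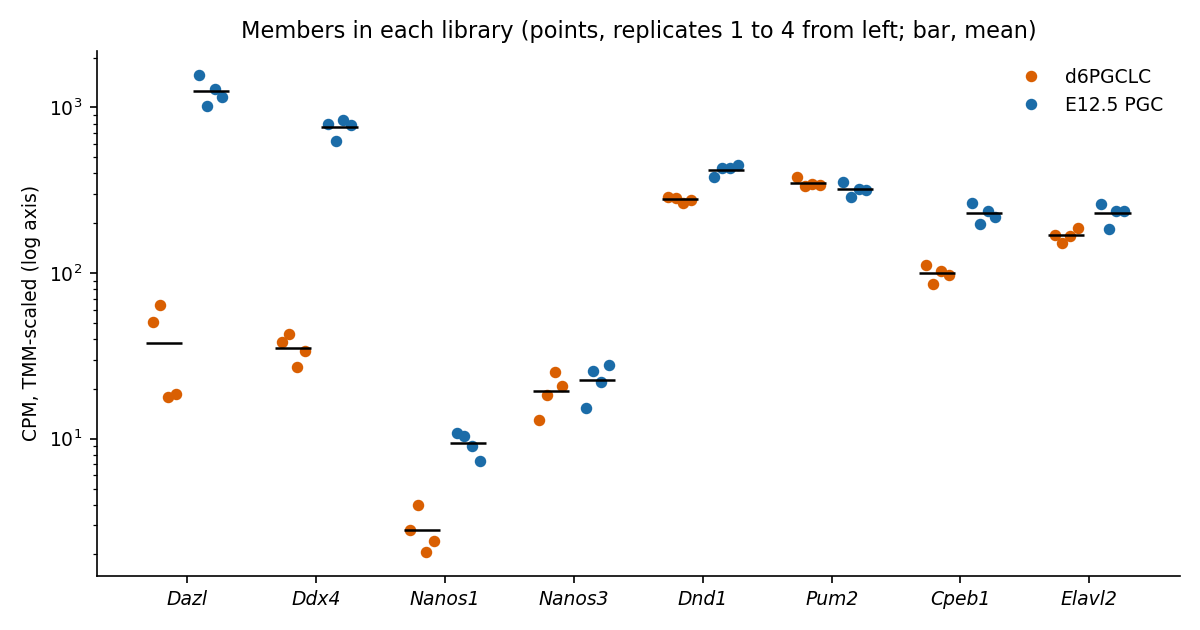
CPM on a log axis for the 8 members with reads, with a point for each of the 4 d6PGCLC and 4 E12.5 PGC libraries and a bar for the mean; Nanos2, with 0 reads in all 8, is not drawn. Dazl and Ddx4 are separated by more than a factor of 10 between the groups, Pum2 and Nanos3 lie at like levels, and the d6PGCLC points of Dazl form an upper and a lower pair.

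The 3 NANOS genes, which encode zinc finger repressors that bring deadenylation complexes to target mRNAs, differed from each other. Nanos1, at chr19:60755987-60759914 on the plus strand, was measured at 2.81, 3.97, 2.07 and 2.42 CPM in d6PGCLC replicates 1 to 4 and at 10.9, 10.4, 9.04 and 7.31 CPM in E12.5 PGC replicates 1 to 4. The groups did not overlap, at a log2 fold change of -1.73 ± 0.24 (SE), but the d6PGCLC values rested on only 20 to 39 reads in a library. Nanos3, at chr8:84173733-84176552 on the minus strand, is the NANOS gene known for its role in PGC survival. It was measured at 12.9, 18.4, 25.2 and 20.8 CPM in the d6PGCLC libraries and 15.2, 25.6, 22.0 and 27.7 CPM in those of E12.5 PGCs, in the order of the replicates. The ranges of the groups overlapped, and the log2 fold change was -0.22 ± 0.20 (SE), with a 95% interval of -0.61 to 0.16. Nanos2, which is known from male germ cells, lies at chr7:18987524-18988962 on the plus strand. It had 0 reads in all 8 libraries, which allows a level of up to 0.249 to 0.383 CPM, depending on the library.

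Dnd1 encodes a partner of NANOS proteins that protects PGCs from loss. It was measured at 290, 286, 265 and 278 CPM in d6PGCLC replicates 1 to 4 and at 380, 430, 430 and 447 CPM in E12.5 PGC replicates 1 to 4. All 4 d6PGCLC libraries were below all 4 E12.5 PGC libraries, by a log2 fold change of -0.59 ± 0.08 (SE), or 1.51-fold. Dnd1, on chromosome 18, overlaps Wdr55 on the opposite strand by 140 bp, and whether the counting used strand is not given in the sources used here. Wdr55 itself was at a mean of 88.5 CPM in the d6PGCLC libraries and 109 CPM in those of E12.5 PGCs, and its part in the Dnd1 counts was not tested. The deposited length of Dnd1, less 40 bp for each of its 3 exons, equals that of an annotated transcript with a retained intron.

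Pum2, which encodes a Pumilio protein that binds mRNAs beside NANOS, lies at chr12:8674092-8752583 on the plus strand. Its level was 381, 335, 347 and 341 CPM in the d6PGCLC libraries and 353, 290, 324 and 318 CPM in those of E12.5 PGCs, in the order of the replicates. The groups overlapped, with a log2 fold change of 0.13 ± 0.09 (SE) and a 95% interval of -0.04 to 0.30. Among the 8 members with reads, Pum2 alone had a mean that was higher in d6PGCLCs.

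Cpeb1, at chr7:81347026-81458001 on the minus strand, was measured at 112, 86.4, 103 and 97.0 CPM in d6PGCLC replicates 1 to 4. In E12.5 PGC replicates 1 to 4 it was measured at 266, 198, 236 and 219 CPM. The groups did not overlap, and the log2 fold change was -1.21 ± 0.10 (SE), 2.31-fold lower in d6PGCLCs. Elavl2, at chr4:91211533-91400108 on the minus strand, was measured at 171, 152, 167 and 188 CPM in the d6PGCLC libraries and 261, 185, 238 and 237 CPM in those of E12.5 PGCs. The log2 fold change of Elavl2 was -0.45 ± 0.10 (SE), and the groups overlapped only through E12.5 PGC replicate 2, which lay just below the highest d6PGCLC library.

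In the fit over all genes with edgeR's quasi-likelihood test, 6 of the 9 members had an adjusted p of at most 0.05 and were lower in d6PGCLCs, against 15.4% of all genes, and 0 were higher, against 16.1%. When a log2 fold change of 2 or more in size was also required, Dazl and Ddx4 were lower, against 3.37% of all genes, and no member was higher, against 3.24%. The groups did not overlap for 5 members, against 30.2% of all genes in either direction. Nothing is read from these counts, because the choice of the members used this contrast. The median log2 fold change of the 8 members with reads was -0.90, and that of the 17010 genes with reads was -0.03.

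Levels of different genes are compared here per length, as RPKM. In d6PGCLCs, Dnd1 was the most abundant member at 145 ± 5.60 RPKM (SD, n = 4). It was followed by Pum2 at 49.2 ± 2.87 RPKM, Elavl2 at 38.4 ± 3.34 RPKM, Cpeb1 at 27.8 ± 2.96 RPKM and Nanos3 at 24.2 ± 6.44 RPKM. Dazl at 11.1 ± 6.81 RPKM and Ddx4 at 9.53 ± 1.77 RPKM came below these, above Nanos1 at 0.711 ± 0.208 RPKM and Nanos2 at 0. Among these neighbours, Cpeb1 and Nanos3, Nanos3 and Dazl, and Dazl and Ddx4 had ranges over the 4 libraries that overlapped. Within single libraries, Nanos3 was above Dazl in all 4, Cpeb1 was above Nanos3 in 3 of 4 and Dazl was above Ddx4 in 2 of 4.

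In E12.5 PGCs the order was led by Dazl at 371 ± 70.8 RPKM (SD, n = 4). Dnd1 at 219 ± 15.2 RPKM and Ddx4 at 204 ± 24.7 RPKM overlapped each other in range. Cpeb1 at 64.2 ± 8.02 RPKM overlapped Elavl2 at 52.3 ± 7.36 RPKM, which overlapped Pum2 at 45.0 ± 3.63 RPKM. Nanos3 at 28.4 ± 6.85 RPKM, Nanos1 at 2.37 ± 0.402 RPKM and Nanos2 at 0 ended the order. Dazl thus stood in the first place in E12.5 PGCs and in the sixth place in d6PGCLCs. Dazl made up 34.6% to 43.0% of the summed RPKM of the members in the E12.5 PGC libraries and 1.76% to 6.09% in the d6PGCLC libraries. For Ddx4 the shares were 19.5% to 21.9% and 2.45% to 3.72%. The summed RPKM itself was 863 to 1080 in E12.5 PGCs and 298 to 316 in d6PGCLCs. The deposited length of 4086 of 19570 genes equalled that of an annotated transcript plus 40 bp per exon. With that amount removed, Ddx4 and Dnd1 changed places in E12.5 PGCs, where their ranges overlapped, and no member changed its place in d6PGCLCs.

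**Figure D2:**
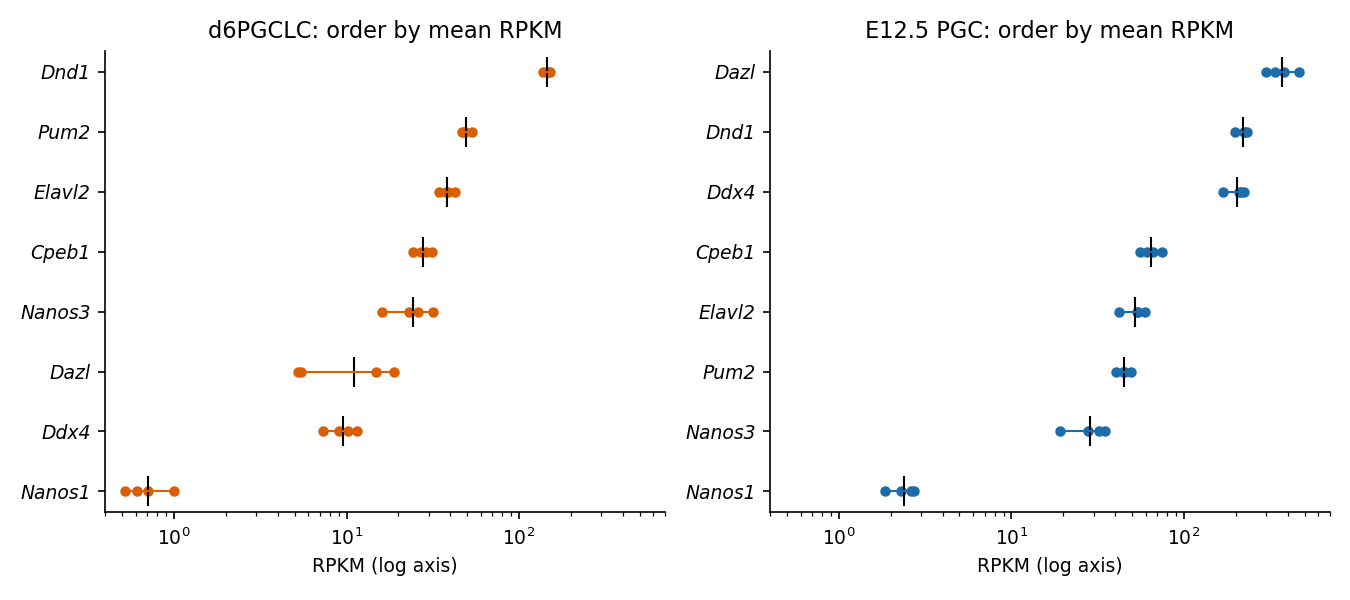
RPKM on a log axis for the 8 members with reads, ordered by mean in d6PGCLCs (left) and in E12.5 PGCs (right), with a point for each library, a line for the range and a tick for the mean. Dazl and Ddx4 are in the sixth and the seventh place on the left and in the first and the third place on the right.

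The d6PGCLC pools were not alike in Dazl. Replicates 1 and 2 were at 50.5 and 63.9 CPM and replicates 3 and 4 at 17.8 and 18.5 CPM, so that the highest library was 3.58 times the lowest. The coefficient of variation of Dazl was 61.5% in d6PGCLCs. In E12.5 PGCs the highest library was 1.55 times the lowest. Among the other members with reads, the coefficient of variation in d6PGCLCs ran from 3.85% in Dnd1 to 29.2% in Nanos1, and that of Ddx4 was 18.6%. The ratio of Dazl to Ddx4 in RPKM was 1.45 and 1.64 in d6PGCLC replicates 1 and 2 and 0.718 and 0.599 in replicates 3 and 4. In the 4 E12.5 PGC libraries the ratio lay between 1.61 and 2.17. Ddx4 had its 2 highest values in the same d6PGCLC libraries as Dazl, with a smaller spread, whereas Nanos3 had its 2 highest values in replicates 3 and 4. With 4 libraries in a group these patterns were not tested. Some markers of other cells split the same pools. The summed gonadal soma markers were at 8.42 and 6.01 CPM in replicates 1 and 2 and at 2.74 and 4.00 CPM in replicates 3 and 4, a split that was absent without Irx3, and Cdx2, picked out after its values were seen, was at 12.51 and 13.03 CPM against 32.4 and 30.7 CPM. The summed markers of epiblast-like and differentiating cells, with Cdx2 among them, were at 49.3 and 45.0 CPM against 55.9 and 52.0 CPM, and without Cdx2 at 36.8 and 32.0 CPM against 23.5 and 21.3 CPM, the reverse order. The summed immediate early and heat shock genes were at 579 and 509 CPM against 462 and 469 CPM, of which Dusp1 held 181 and 138 CPM against 108 and 98.2 CPM. Fos split the same way, whereas Fosb and Jun had the reverse order, Jun at 12.6 and 11.5 CPM against 18.1 and 21.8 CPM. The summed blood and endothelium markers were at 37.3 and 39.5 CPM against 39.9 and 50.7 CPM. Among them Cdh5 was at 6.64 and 9.57 CPM against 11.2 and 16.5 CPM. Csf1r had the reverse order, at 3.06 and 2.04 CPM against 1.08 and 1.45 CPM, and Cd68 and Tek did not split the pools. The part of these in the values of Dazl was not tested.

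The members were set beside other genes of their families. Of 13 related genes counted here, 3 fell and 2 rose at an adjusted p of at most 0.05 in the edgeR fit (15.4% of all genes fell and 16.1% rose), and their median log2 fold change was -0.14. Boll, the other autosomal gene of the DAZ family, was at 1.64 ± 0.527 CPM in the d6PGCLC libraries and 5.04 ± 1.33 CPM in those of E12.5 PGCs (SD over n = 4 each). It fell by 1.63 ± 0.30 (SE) on the log2 scale (adjusted p = 0.000173) at a level far below that of Dazl. D1Pas1, a DDX3-like helicase gene expressed in testis, fell by 1.04 ± 0.21 (SE) from 18.3 to 8.96 CPM (adjusted p = 0.000545). Ddx3x, the broadly expressed helicase of this family, was at 1577 CPM and 1565 CPM, with a log2 fold change of 0.01 ± 0.10 (SE).

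In the family of Dnd1, Rbm46, which encodes a germ cell RNA-binding protein needed for meiosis, fell by 0.88 ± 0.13 (SE) from 70.6 to 38.4 CPM (adjusted p = 9.8e-06). Rbm47 rose in d6PGCLCs by 1.17 ± 0.11 (SE), from 83.6 ± 2.52 CPM to 188 ± 33.3 CPM (SD, n = 4 each; adjusted p = 2.44e-08). Rbm47 was thus higher in all 4 d6PGCLC libraries, the lowest of which held 163 CPM against a highest E12.5 PGC value of 87.1 CPM. The hnRNP genes Syncrip (-0.23 ± 0.09, SE) and Hnrnpr (-0.18 ± 0.09, SE) did not pass the test, and A1cf had 0 reads in every library.

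In the family of Cpeb1, Cpeb2 and Cpeb4, at mean levels of 5.39 and 17.0 CPM in d6PGCLCs, had log2 fold changes of -0.00 ± 0.28 and 0.02 ± 0.16 (SE) and did not pass. Elavl3, a neuronal gene, rose by 1.37 ± 0.31 (SE), but only from 1.39 to 3.61 CPM (adjusted p = 0.00108). Elavl4 at -0.56 ± 0.29 and the ubiquitous Elavl1 at -0.10 ± 0.09 (SE) did not pass.

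**Figure D3:**
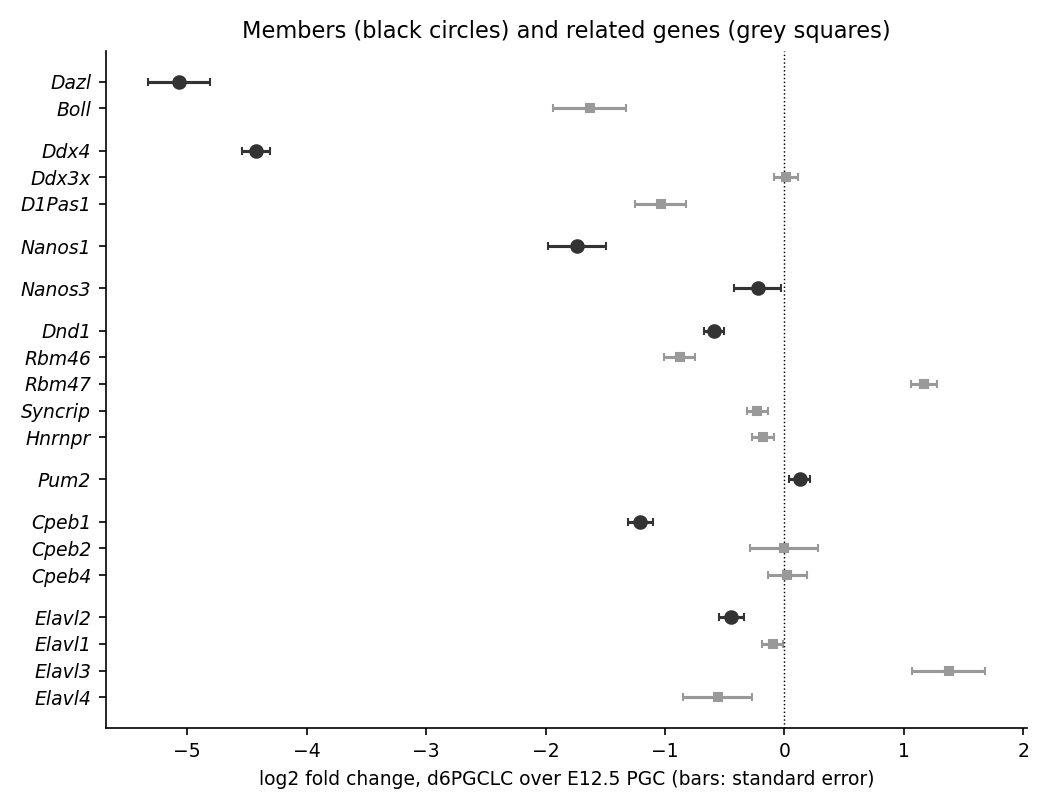
Log2 fold change of d6PGCLC over E12.5 PGC with its standard error for the 8 members with reads (black circles) and 12 related genes with reads (grey squares), ordered by family. Dazl at -5.07 and Ddx4 at -4.42 lie to the left of all others, and Rbm47 and Elavl3 lie above 1.

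Beyond these families, 5 lists of genes around the members were counted in the same fit, where 15.4% of all genes fell and 16.1% rose. A share near these values is not a result about the list. Here and throughout, these shares are over all 21950 genes, of which 17010 had reads. A gene without reads cannot pass, so the shares among genes with reads are higher, and nearly all genes of the lists had reads. The lists, with that of related genes, were written with earlier results of these data known, so their counts are a description. Of 20 genes of the CCR4-NOT complex, its adaptors and other deadenylases, 7 fell and 1 rose at an adjusted p of at most 0.05, with a median log2 fold change of -0.23. Those that fell were Btg3, Tob2, Cnot4, Cnot2, Cnot7, Cnot10 and Cnot3, and the one that rose was Cnot8, a paralog of the catalytic subunit gene Cnot7; none had both 100 reads on average and a change of 1 on the log2 scale. The number that fell was 4 without E12.5 PGC replicates 2 and 4, and 5 to 10 when single libraries were left out. The number that rose was 2 without E12.5 PGC replicate 2.

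Of 22 genes of mRNA storage, cap binding and decapping, 4 fell and 4 rose, with a median of -0.08. Ybx2, which encodes a cold shock protein that stores mRNAs in germ cells, was at 26.3, 23.1, 29.3 and 23.5 CPM in d6PGCLC replicates 1 to 4 and at 51.9, 67.7, 53.3 and 50.2 CPM in E12.5 PGC replicates 1 to 4. It fell by 1.12 ± 0.13 (SE; adjusted p = 5.72e-07), and the groups did not overlap. Eif4e3, which encodes a cap-binding protein, was at 42.2, 28.8, 15.5 and 25.3 CPM in d6PGCLC replicates 1 to 4 and at 8.61, 6.73, 5.99 and 6.14 CPM in E12.5 PGC replicates 1 to 4. It rose by 2.03 ± 0.23 (SE; adjusted p = 5.43e-07). The number of genes that fell was 7 without d6PGCLC replicate 1. Of 17 genes of polyadenylation and poly(A) binding, 5 fell and 2 rose, with a median of -0.12, none of them by 1 or more on the log2 scale. None of the 17 rose in the fit without E12.5 PGC replicate 3, and 1 rose without d6PGCLC replicate 1, without E12.5 PGC replicates 2 and 4, or with upper quartile scaling.

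Of 29 other RNA-binding genes known from germ cells, 11 fell and 7 rose, with a median of -0.33; Boll and Rbm46 are counted here again. The 3 lowest by the rule for naming genes were Mael, Rbm44 and Adad2. Mael, a gene of germ granules and the piRNA pathway, was at 9.70, 11.7, 3.15 and 3.52 CPM in d6PGCLC replicates 1 to 4 and at 126, 70.1, 99.9 and 90.1 CPM in E12.5 PGC replicates 1 to 4. It fell by 3.80 ± 0.27 (SE; adjusted p = 6.95e-10), and its d6PGCLC libraries formed the same upper and lower pair as those of Dazl. Rbm44, which encodes a protein of germ cell intercellular bridges, was at 36.8, 36.8, 16.3 and 17.7 CPM in d6PGCLC replicates 1 to 4 and at 165, 132, 166 and 158 CPM in E12.5 PGC replicates 1 to 4. It fell by 2.54 ± 0.19 (SE; adjusted p = 1.62e-09), and replicates 1 and 2 of the d6PGCLCs were again above replicates 3 and 4. Adad2 was at 8.68, 11.0, 15.6 and 13.2 CPM in d6PGCLC replicates 1 to 4 and at 55.8, 56.8, 58.4 and 49.2 CPM in E12.5 PGC replicates 1 to 4. It fell by 2.17 ± 0.15 (SE; adjusted p = 4.69e-10), with replicates 3 and 4 of the d6PGCLCs the higher pair. Among the 7 that rose, 5 rose by less than 1 on the log2 scale, and the other 2, Msi2 and Bicc1, had fewer than 100 reads on average.

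Of 8 genes described as bound or regulated by DAZL, 4 fell and 2 rose, with a median of -0.39. Sycp1 and Sycp3 encode parts of the synaptonemal complex. Sycp1 was at 5.23, 5.29, 3.48 and 4.36 CPM in d6PGCLC replicates 1 to 4 and at 37.4, 18.4, 32.3 and 21.0 CPM in E12.5 PGC replicates 1 to 4, so that it fell by 2.58 ± 0.23 (SE; adjusted p = 9.9e-09). Sycp3 fell by 1.73 ± 0.18 (SE), from 34.7 to 10.4 CPM (adjusted p = 8.56e-08). Tex19.1, a gene of germ and pluripotent cells, was at 126, 212, 93.9 and 96.1 CPM in d6PGCLC replicates 1 to 4 and at 417, 429, 449 and 473 CPM in E12.5 PGC replicates 1 to 4. It fell by 1.74 ± 0.17 (SE; adjusted p = 6.97e-08), and its d6PGCLC replicates 1 and 2 were above replicates 3 and 4. Casp2 fell, and Sox2 and Suz12 rose, all by less than 1 on the log2 scale. The genes of the 6 lists named here with an adjusted p, from Boll to Tex19.1, passed the test under all 18 alternative fits.

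**Figure D4:**
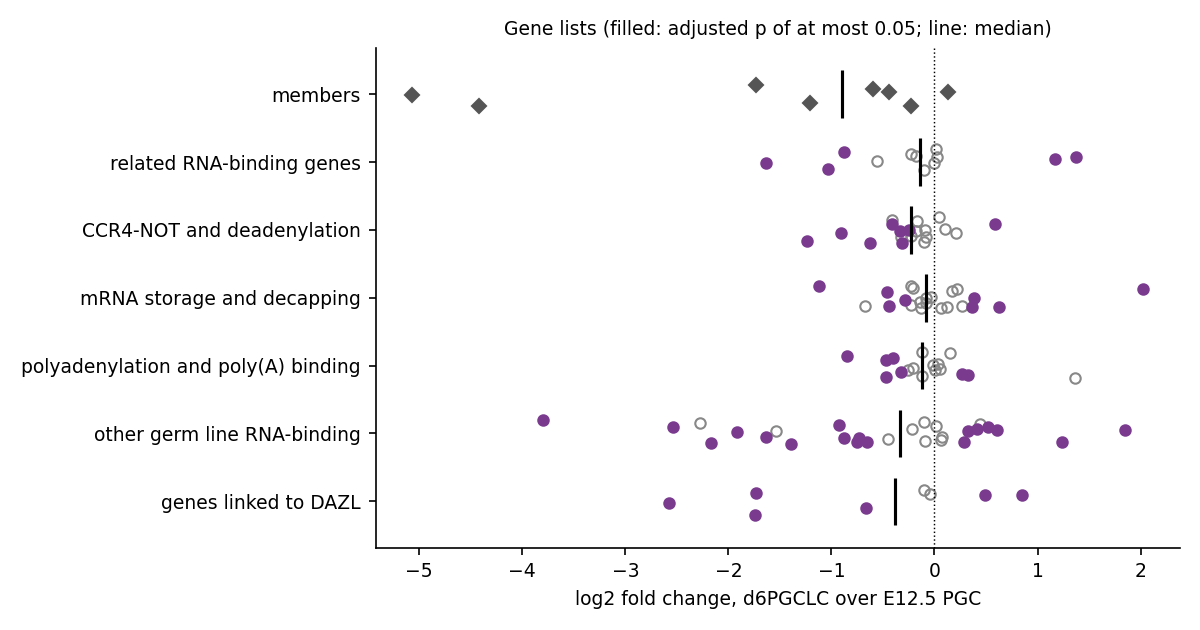
Log2 fold change of d6PGCLC over E12.5 PGC for the members with reads (grey diamonds, given as a description) and for the genes with reads in 6 lists, with filled points for an adjusted p of at most 0.05 in the edgeR fit and a line for the median of each list. The medians of the lists lie between -0.39 and -0.08, and that of the members at -0.90.

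Genes with the pattern most like that of Dazl and of Ddx4 were ranked by the Euclidean distance between profiles of log2(RPKM + 0.1), centred per gene over the 8 libraries, among 8121 other genes with a mean of at least 100 reads. This likeness rests mostly on the difference between the groups and is a description. The 5 genes nearest to Dazl were Asz1 at a distance of 1.71, Prr19 at 1.85, Mael at 1.88, Slc25a31 at 2.13 and Hormad1 at 2.29. Ddx4 was at a distance of 1.75 from Dazl, between the first and the second of these. Asz1, a gene of the piRNA pathway, was at 6.25, 14.5, 2.82 and 2.18 CPM in d6PGCLC replicates 1 to 4 and at 86.2, 94.0, 108 and 100.01 CPM in E12.5 PGC replicates 1 to 4. All 5 had their lower values in d6PGCLCs. The order of the d6PGCLC libraries entered the distance, so that a pattern shared with Dazl there is partly built in.

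The 5 genes nearest to Ddx4 were Hormad1 at a distance of 0.817, Slc25a31 at 0.921, Prr19 at 0.986, Plcb2 at 1.17 and Lonrf2 at 1.28. Hormad1, which encodes a protein of the meiotic chromosome axis, was at 3.57, 7.02, 3.48 and 4.49 CPM in d6PGCLC replicates 1 to 4 and at 74.1, 66.0, 82.2 and 77.7 CPM in E12.5 PGC replicates 1 to 4. Slc25a31, an ADP/ATP carrier gene of germ cells, was at 5.96 ± 2.71 CPM in the d6PGCLC libraries and 88.4 ± 7.23 CPM in those of E12.5 PGCs (SD over n = 4 each). Hormad1, Slc25a31 and Prr19 stood among the 5 nearest genes of both Dazl and Ddx4.

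**Figure D5:**
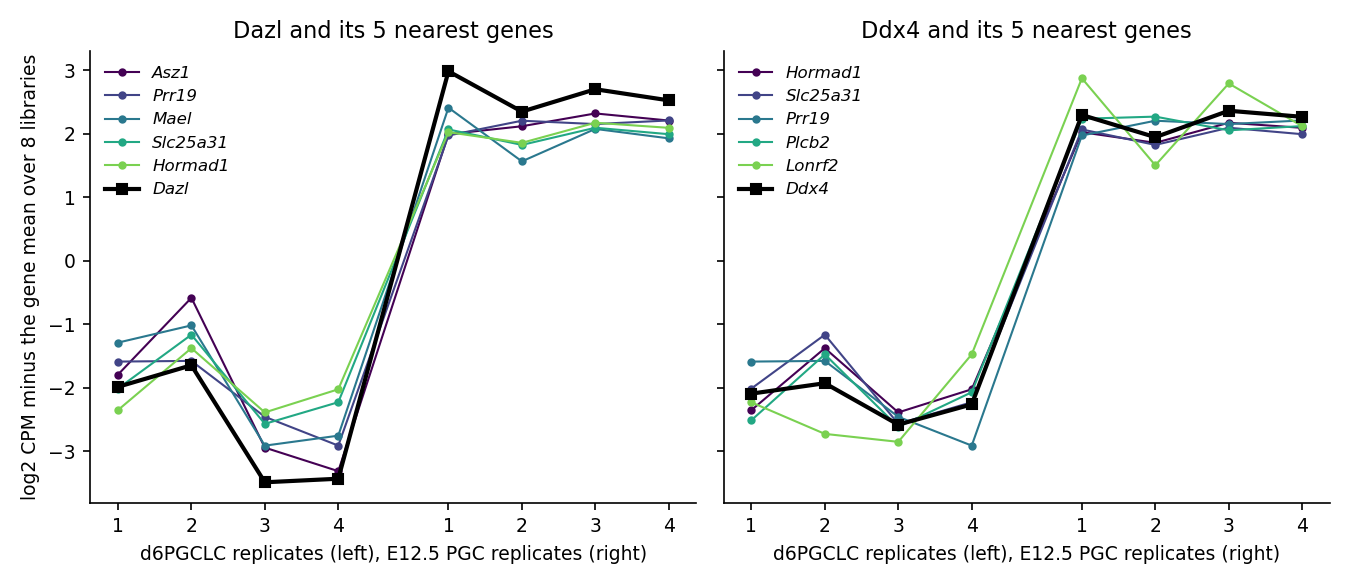
Log2 CPM minus the mean of the gene over the 8 libraries, for Dazl (left, black) and Ddx4 (right, black) and the 5 genes nearest to each, with d6PGCLC replicates 1 to 4 before E12.5 PGC replicates 1 to 4. Dazl is lowest of the left panel in d6PGCLC replicates 3 and 4, and Ddx4 lies close to its nearest genes in both groups.

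Markers of other cells in the sorted pools were counted in the same fit, beside 15.4% of all genes that fell and 16.1% that rose. Of 12 markers of the gonadal soma, 8 fell in d6PGCLCs and none rose, at summed levels of 2.74 to 8.42 CPM in d6PGCLCs and 13.4 to 22.9 CPM in E12.5 PGCs; Emx2 and Tcf21 had 0 reads in all d6PGCLC libraries. In CPM, which does not account for gene length, the levels of Dazl, Ddx4, Dnd1, Pum2, Cpeb1 and Elavl2 in every E12.5 PGC library were above the highest of these sums. Those of Nanos3, at 15.2 to 27.7 CPM in E12.5 PGCs, overlapped the sums only in part. Nanos3 lay below the sum of its library in replicate 1 and above it in replicates 2, 3 and 4. A sum of markers sets no bound on the reads that such cells add to another gene, so nothing is read from these comparisons. Irx3 alone made up 2.16 to 7.66 CPM of the sums in d6PGCLCs and 9.03 to 13.5 CPM in E12.5 PGCs. Without it the sums were 0.581 to 1.70 CPM in d6PGCLCs and 4.42 to 9.86 CPM in E12.5 PGCs. Nanos1, at 7.31 to 10.9 CPM in E12.5 PGCs, lay below the sum of its library with Irx3 and above it without Irx3 in all 4 libraries, and both Nanos1 and the sums were lower in d6PGCLCs. Of 9 markers of epiblast-like and differentiating cells, 6 fell and 1 rose, at sums of 45.0 to 55.9 CPM in d6PGCLCs and 70.1 to 81.8 CPM in E12.5 PGCs. Without Cdx2 the sums were 21.3 to 36.8 CPM and 31.2 to 33.7 CPM, and the groups overlapped. Of 9 markers of blood and endothelium, 1 fell and 3 rose, at sums of 37.3 to 50.7 CPM in d6PGCLCs and 16.5 to 33.7 CPM in E12.5 PGCs. The defining genes Hbb-bs, Hba-a2 and Emcn had 0 reads in d6PGCLCs, and Ptprc and Csf1r had 0 reads in E12.5 PGCs. Most of these were near the floor in the other group too, with means of 0.136 CPM for Hbb-bs and 0.158 CPM for Emcn in E12.5 PGCs and 0.025 CPM for Ptprc in d6PGCLCs. Hba-a2 rested mostly on E12.5 PGC replicate 2, at 5.05 CPM. The part of these cells in the values of the members was not tested.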

How the data were processed

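The authors deposited a table of read counts per gene, not normalized and limited to reads with 1 position, beside the exonic length of each gene. Per the labels and the study's methods, polyadenylated RNA was prepared with a stranded kit and sequenced from one end, reads were aligned with STAR to GRCm38 (mm10), and reads were counted with QuasR on the exons of 1 randomly picked isoform per gene. Reads on exons outside that isoform are missed. Whether counting used strand is not given in the sources used here. Of 19570 genes with an annotated transcript, the deposited length equalled the transcript length plus 40 bp per exon in 4086. RPKM used the deposited length.

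Of 21950 identifiers, 21907 matched a RefSeq symbol (GRCm38.p6). The members and the gene lists were chosen with earlier results of these data known. The results for 2 genes of the lists are not reported here, and list counts and medians leave them out. The counts were scaled with TMM in R 4.3.3 and tested with edgeR 4.0.16 (quasi-likelihood test, cell type as the only term, no filter on low counts, prior count 0.125), with Benjamini-Hochberg adjustment over all genes. Standard errors came from the fit and 95% intervals from 1.96 standard errors. The depth was 7991437 to 12024841 counts. Every pair of libraries within a group differed by more than sampling noise (chi-square over its degrees of freedom, 3.19 to 20.8). Fits were tested on simulated data. The genes named were all members, all related genes, the up to 3 highest and 3 lowest genes of each other list with an adjusted p of at most 0.05, a log2 fold change of 1 or more in size and a mean of at least 100 counts, and the 5 genes nearest in pattern to Dazl and to Ddx4; Wdr55, the genes that passed in the deadenylation and DAZL lists, Msi2 and Bicc1, and the single genes named from the marker and stress lists, were named after their values were seen. Tried as alternatives were DESeq2 1.42.0, the likelihood ratio test, 3 other normalizations, 2 filters, a prior count of 2, a replicate block, other thresholds, and leaving out libraries. The length without 40 bp per exon was added after the lengths had been seen, as were the spread of Dazl without TMM and the marker sums without Irx3 or Cdx2.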

Additional observations from a re-analysis of the deposited data

Results flagged for a closer look

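In groups of 4 libraries, a library was singled out where its gap to the nearest other library, divided by the range of the group, exceeded Dixon's 95% critical value. Of 79 groups of values tested, 4 met this, and chance alone gives about 1 in 20. No member was among them. Among related genes, Cpeb2 was at 8.61 CPM in E12.5 PGC replicate 1, against 3.97 to 4.70 CPM in the others. Elavl4 was at 3.88 CPM in d6PGCLC replicate 4, against 1.91 to 2.16 CPM in the others. The summed level of 11 immediate early and heat shock genes was 1143 CPM in E12.5 PGC replicate 2, against 495.3 to 570.4 CPM. The summed level of 5 Y-linked genes was 8.76 CPM in E12.5 PGC replicate 4, against 0 in the others.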

How the results depend on the processing

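The log2 fold changes of the 8 members with reads were computed under 18 alternatives each. None moved by more than the spread between replicates, and none of the 6 members that had passed the adjusted p changed direction. Nanos3 changed sign only without E12.5 PGC replicates 2 and 4 (0.05). The number of genes called over the whole table was 1452, and it was 847 with filterByExpr, 934 with a filter of 1 CPM in at least 3 samples, 832 with a prior count of 2, 3237 at a log2 fold change of 1 or more in size and 6919 without a threshold on the fold change. At the last 2 thresholds, 4 and 6 members were called in place of 2, and 17 and 50 genes of the 6 lists in place of 5. Leaving out single libraries gave 1324 to 1411 genes, 2 members and 4 to 6 list genes. The order of the members changed in 9 places over both groups with CPM in place of RPKM, and in 2 with the length less 40 bp per exon. The highest d6PGCLC library of Dazl was 3.50 times the lowest without TMM, against 3.58. Whether the replicate numbers in the labels pair the libraries was not settled. The correlation of deviations from the group means was 0.302, 0.114, -0.04 and 0.04 for numbers 1 to 4. The value for number 1 was the highest of all pairs of libraries, but not every library correlated best with its own number. With the replicate number as a block, 1280 genes, 2 members and 4 list genes were called, and the log2 fold changes of Dazl and Ddx4 were -5.22 and -4.43. Depth limits Nanos1, Boll, Cpeb2, Elavl3, Elavl4, Btg3, Msi2 and Bicc1, which had fewer than 100 reads on average, and Nanos2 and A1cf, which had none.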
